A study of Homo sapiens with 6 samples.

Results

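The 10 genes described here are transcriptional targets of bone morphogenetic protein (BMP) signalling together with the inhibitory SMADs, ID1, ID2, ID3, ID4, SMAD6, SMAD7, SMAD9, BAMBI, ATOH8 and MSX2. They are 10 of the 19775 genes that the array's annotation names through at least 1 probe set with a single symbol, and they are read by 23 of its 54675 probe sets. The genes were selected on the intensities of these same arrays, with the differences between PRMT5 shRNA and control arrays already known, so those differences are given as a description, with no p-value. All samples were VCaP cells, an established human prostate cancer line that carries a TMPRSS2-ERG fusion. The 3 groups of 2 arrays each were cells with PRMT5 shRNA 1, cells with PRMT5 shRNA 2 and cells with a non-targeting control hairpin (NTC), and all 3 groups received 100 ng/ml doxycycline for 3 days. PRMT5 is an enzyme that methylates arginines in histones and splicing proteins. Whether a line was a clone or a pool, and whether replicates were separate cultures, is not given in the sources used here, so the spread between replicates may be technical.

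BMP ligands bind a pair of receptor kinases, which phosphorylate SMAD1, SMAD5 and SMAD9. These join SMAD4, enter the nucleus and switch on target genes, among which ID1 to ID4 are the best known. The same signal also switches on its own inhibitors. SMAD6 acts mainly on the BMP branch, SMAD7 acts on both the BMP and the TGF-beta branch, and BAMBI is a receptor-like protein that lacks the kinase. In prostate cells BMP and TGF-beta signals are known mainly for restraining growth and for roles in bone metastasis.

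The promoters of 4 of the genes are shown. SMAD6 and SMAD7, both inhibitory SMADs, differed from NTC in opposite directions, and ID1 and BAMBI are among the genes that were higher. Each sequence is the 250 bases before the annotated start site, read 5′ to 3′ on the gene's strand from RefSeq on GRCh38.p14. ID1 lies at chr20:31605039-31605288 on the plus strand, SMAD6 at chr15:66701986-66702235 on the plus strand, SMAD7 at chr18:48950966-48951215 on the minus strand and BAMBI at chr10:28677271-28677520 on the plus strand. Capitals mark GTCTAGAC, the palindrome that SMAD3 and SMAD4 bind, and GGCGCC, a GC-rich element that BMP-activated SMADs bind.
ID1: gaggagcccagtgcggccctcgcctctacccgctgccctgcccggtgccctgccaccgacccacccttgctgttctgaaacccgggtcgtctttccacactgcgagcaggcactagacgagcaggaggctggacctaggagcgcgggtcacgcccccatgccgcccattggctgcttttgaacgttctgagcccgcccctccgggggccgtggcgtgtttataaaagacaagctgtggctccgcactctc
SMAD6: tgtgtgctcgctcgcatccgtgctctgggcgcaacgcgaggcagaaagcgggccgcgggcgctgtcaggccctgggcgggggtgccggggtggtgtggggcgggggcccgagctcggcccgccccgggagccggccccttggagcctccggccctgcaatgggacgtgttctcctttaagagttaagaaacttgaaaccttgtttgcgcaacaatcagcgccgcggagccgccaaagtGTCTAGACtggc
SMAD7: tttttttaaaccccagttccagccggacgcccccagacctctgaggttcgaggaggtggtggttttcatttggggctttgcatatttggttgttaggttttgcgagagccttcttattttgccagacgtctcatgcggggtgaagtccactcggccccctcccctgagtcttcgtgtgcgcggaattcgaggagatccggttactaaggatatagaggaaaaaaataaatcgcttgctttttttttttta
BAMBI: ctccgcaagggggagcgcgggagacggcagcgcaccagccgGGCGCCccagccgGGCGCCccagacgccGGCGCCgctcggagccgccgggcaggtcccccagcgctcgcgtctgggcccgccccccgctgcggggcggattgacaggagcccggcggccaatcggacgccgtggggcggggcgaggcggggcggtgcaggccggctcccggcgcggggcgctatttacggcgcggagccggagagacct
All 10 genes matched a promoter window, with 3 windows for SMAD7, of which the one farthest upstream is printed, and 12 windows in all. On either strand, GTCTAGAC was present in the SMAD6 window, starting 12 bases before the start site, and in 0.182% of all 35116 windows. GGCGCC was present in the BAMBI window, starting 209, 196 and 181 bases before the start site, and in 16.4% of all windows. Each of these motifs was in 1 of the 12 windows only, so the promoters printed do not represent the other genes. Whether the motifs go with the differences was not tested. The shorter CAGACA was present in 0 of the 12 windows and in 13.6% of all. The E-box CAGCTG, a motif of bHLH factors, was found upstream of ID2, ID4 and ATOH8 and in 14.0% of all windows, and the E-box CACGTG upstream of SMAD9 and in 6.34% of all. None of the 5 motifs was in the ID1, ID3, SMAD7 or MSX2 windows. Sequence outside the windows was not searched, so these genes may have such motifs elsewhere. The windows of the 10 genes had a median GC content of 65.2% and a median of 24 CpG dinucleotides, and all windows had medians of 58.0% and 11.

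The values are MAS5 signal intensities on a linear scale, and differences are in log2(intensity + 16), where adding 16 shrinks the differences of dim genes. Array medians lay between 14.8 and 16.4. PRMT5 itself, on its brightest probe set, had 135.6 and 133.8 with shRNA 1 and 291.2 and 321.0 with shRNA 2, against 809.8 and 880.5 with NTC, which leaves 15.9% and 36.2% of the NTC mean. Of the luminal prostate markers found, 8 of 8 passed the filter on dim probe sets (at or above the array median in at least 2 arrays), among them KLK3, TMPRSS2 and ERG, with summed intensities of 7869 to 8188 with shRNA 1, 8315 to 8877 with shRNA 2 and 6813 to 7282 with NTC. KLK3 carried the higher sums, at 223% and 218% of its NTC mean, with KRT8 and KRT18 also higher. TMPRSS2 (82% and 90.1%), HOXB13 (71.8% and 93.8%), FOXA1 (88.7% and 94.9%) and ERG (75.7% and 98.8%) had lower means. For each of these the shRNA 1 arrays lay below both NTC arrays, while the shRNA 2 arrays overlapped the NTC arrays. Without KLK3 the sums were 5281 and 5522 with shRNA 1, 6202 and 5850 with shRNA 2, and 5627 and 6114 with NTC. Of the endothelial markers 0 of 5 passed, with sums of 21.1 to 22.3, 15.5 to 16.2 and 18.7 to 26.9 for shRNA 1, shRNA 2 and NTC. Of the immune markers 0 of 3 passed, with sums of 13.0 to 17.9, 14.7 to 16 and 14.8 to 15.2, and of the fibroblast markers COL1A1 alone of 5 passed, with sums of 41.0 to 49.2, 57.9 to 69.2 and 49.8 to 56.2. The 3′ to 5′ signal ratio of ACTB, a sign of RNA quality, was 3.49 and 3.88 with shRNA 1, 5.72 and 5 with shRNA 2, and 4.58 and 4.88 with NTC, so it lay below NTC with the first hairpin and above it with the second. For GAPDH it was 1.21 and 1.23, 1.23 and 1.22, and 1.26 and 1.33. The part of RNA quality in the differences below was not tested, and a change in fewer cells cannot be told apart from a smaller change in every cell.

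With either PRMT5 hairpin 9 of the 10 genes had higher signal than with NTC, and SMAD7 had lower signal. The differences ranged from a small one in ID4 to more than 5-fold in ATOH8 with either hairpin. For each of the 9 all 4 knockdown arrays lay above both NTC arrays, as they did for 18.7% of the 12413 genes tested. For SMAD7 all 4 lay below both, as they did for 20.5% of the genes tested. In limma's fit of all genes, past an adjusted p of 0.05 for the average of both hairpins, 9 of the 10 were higher and 1 lower, where 32.4% of all genes were called, 15.4% higher and 17% lower. Over all genes there were 4016 calls, and fewer when NTC replicate 1 or NTC replicate 2 was left out. Such a fit keeps a single control array and has less power. A dependence of these shares on particular control arrays therefore cannot be told apart from the loss of power. The same 9 and 1 were past the threshold for shRNA 1 (39.3% of all genes, 16.2% higher and 23.1% lower) and for shRNA 2 (21.4%, 13.1% higher and 8.39% lower). Both comparisons share the 2 NTC arrays, and nothing is read from these counts because the choice of genes used them. All 10 genes passed the filter on a probe set that reached the array median in all 6 arrays.

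**Figure D1:**
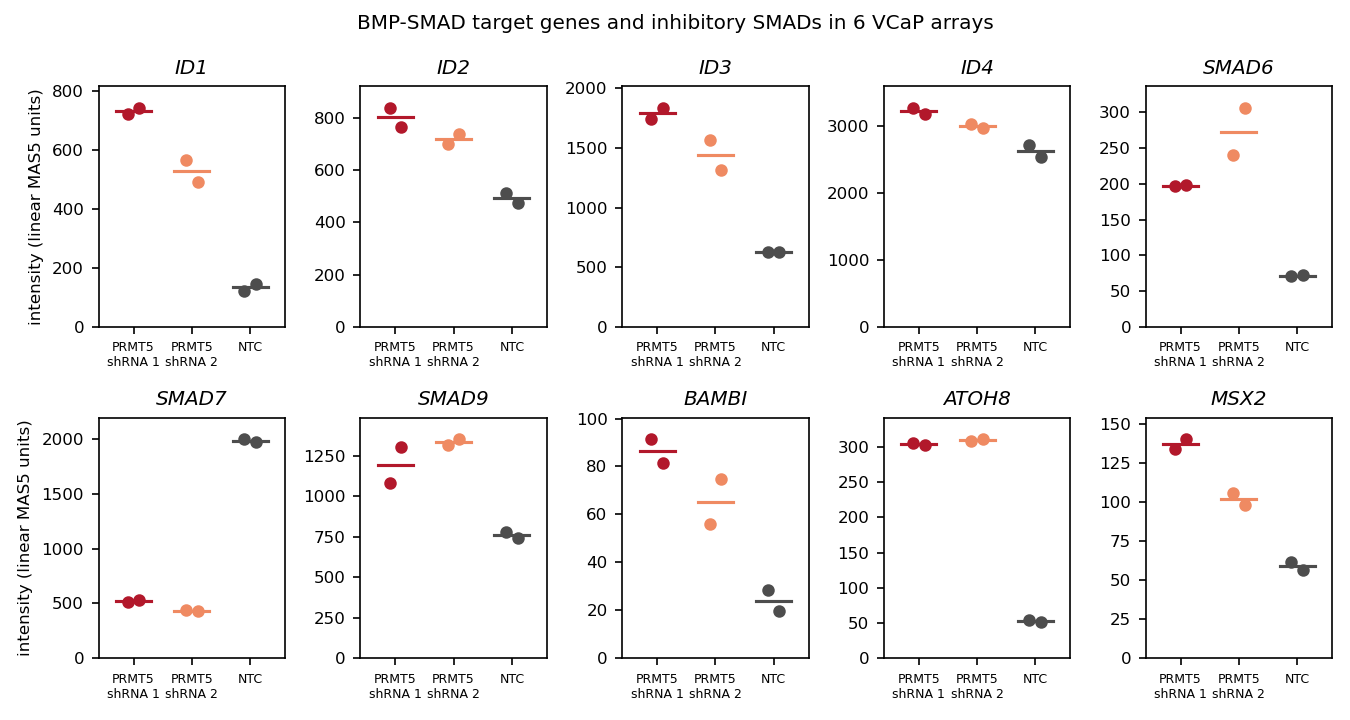
Linear MAS5 intensity of each of the 10 genes on its brightest probe set (y axes start at 0), with a point for each array and a line for the mean of 2, in PRMT5 shRNA 1, PRMT5 shRNA 2 and NTC cells. In 9 panels the 4 knockdown points lie above both NTC points, and in the SMAD7 panel they lie below, at 433.3 to 533.5 against 1967.4 and 1995.1.

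The ID genes encode helix-loop-helix proteins without a DNA-binding region, which hold E proteins away from DNA. ID1 (probe set 208937_s_at) had intensities of 722.4 and 744.2 with shRNA 1 and 565.5 and 492.5 with shRNA 2, against 123.4 and 147.1 with NTC. The 3 groups did not overlap, and the mean was 5.42 times the NTC mean with shRNA 1 and 3.91 times with shRNA 2. On the log2 scale ID1 was 2.31 ± 0.09 (SE) above NTC with shRNA 1 and 1.85 ± 0.09 with shRNA 2.

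ID3 (207826_s_at) had 1747.0 and 1837.2 with shRNA 1 and 1568.0 and 1312.7 with shRNA 2, against 630.5 and 625.7 with NTC. It was 2.85 and 2.29 times the NTC mean, a log2 difference of 1.49 ± 0.08 and 1.17 ± 0.08 (SE). The groups stood apart again, with shRNA 1 highest, although the shRNA 2 arrays differed from each other by more than those of the other groups.

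ID2 (201566_x_at) had 837.4 and 765.7 with shRNA 1 and 698.8 and 738.3 with shRNA 2, against 511.0 and 471.7 with NTC, and was 1.63 and 1.46 times the NTC mean. Its other probe set, 201565_s_at, gave 1.89 and 1.42 times. Both probe sets of ID2 may also read near-identical pseudogene copies, and 1 further probe set is annotated to both ID2 and ID2B.

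ID4 showed the smallest difference of the 10 genes. On its brightest probe set (209291_at) it had 3267.9 and 3178.9 with shRNA 1 and 3027.7 and 2967.1 with shRNA 2, against 2716.9 and 2540.5 with NTC, which is 1.23 and 1.14 times the NTC mean. The groups did not overlap, but ID4 was no longer past the threshold when NTC replicate 2 was left out. The 5 probe sets of ID4 did not give 1 size. Of the other 4, 226933_s_at gave 1.65 and 1.45 times the NTC mean, 209292_at 1.29 and 1.24 times and 209293_x_at 2.91 and 1.81 times, while the dim 229386_at gave 1.54 and 0.992 times, with shRNA 2 arrays of 22.3 and 24.6 between the NTC arrays of 20.8 and 26.5. With the mean over its probe sets the averaged log2 difference of ID4 was 0.47, against 0.24 on the brightest.

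SMAD7 was the only one of the 10 genes that was lower. It had 515.7 and 533.5 with shRNA 1 and 436.7 and 433.3 with shRNA 2, against 1995.1 and 1967.4 with NTC, on its single probe set (204790_at). That is 26.5% of the NTC mean with shRNA 1 and 22.0% with shRNA 2. The SD between replicates was at most 19.6, so the groups were far apart. The log2 differences were -1.89 ± 0.06 (SE) and -2.15 ± 0.06, the lower value with the hairpin that left more PRMT5. With a single probe set, no second measurement of SMAD7 was made on these arrays.

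SMAD6, the other inhibitory SMAD, was higher. Its brightest probe set (207069_s_at) had 196.4 and 198.0 with shRNA 1 and 239.7 and 306.1 with shRNA 2, against 70.7 and 71.8 with NTC, which is 2.77 and 3.83 times the NTC mean. The log2 differences were 1.29 ± 0.11 and 1.72 ± 0.11 (SE). SMAD6 therefore showed its higher value with shRNA 2 on this probe set, whose shRNA 2 arrays also differed most from each other.

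The 3 dimmer SMAD6 probe sets had the hairpins in the other order. On 209887_at SMAD6 had 34.3 and 41.6 with shRNA 1 and 29.1 and 19.7 with shRNA 2, against 9.9 and 6.5 with NTC. On 213565_s_at the values were 29.3 and 37.0, 22.4 and 23.6, and 14.3 and 13.1 in the same order of groups, and on 209886_s_at they were 29.3 and 35.0, 20.2 and 19.2, and 25.1 and 11.6, where the shRNA 2 arrays lay between the NTC arrays. All 3 were dim in NTC cells, with at most 25.1. The averaged log2 difference of SMAD6 was 1.5 on the brightest probe set, 0.83 with the mean over all 4, and 0.945 without probe sets that may read related transcripts (_s_at and _x_at).

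SMAD9 is a receptor-activated SMAD of the BMP branch, not an inhibitor, and a weaker activator than SMAD1 and SMAD5. On 227719_at it had 1083.9 and 1305.4 with shRNA 1 and 1317.0 and 1351.6 with shRNA 2, against 777.8 and 741.8 with NTC, or 1.57 and 1.76 times the NTC mean. On 206320_s_at it had 117.3 and 102.5, 81.1 and 84.7, and 58.2 and 52.1, or 1.99 and 1.5 times. Both probe sets put all knockdown arrays above NTC, with the hairpins in opposite order.

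BAMBI was dim in control cells. On its single probe set (203304_at) it had 91.3 and 81.4 with shRNA 1 and 55.9 and 74.6 with shRNA 2, against 28.3 and 19.8 with NTC, or 3.59 and 2.71 times the NTC mean. The averaged log2 difference of 1.19 ± 0.12 (SE) depends on the added constant, with 1.615 for an added 1 and 0.66 for an added 64.

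ATOH8, a bHLH transcription factor, had an averaged log2 difference of 2.23 ± 0.07 (SE) on its brightest probe set, against 2.08 ± 0.08 for ID1. The order of these genes was the reverse with the mean over probe sets (1.84 against 2.08), with an added 64 (1.67 against 1.79) and with shRNA 1 alone. On 228890_at it had 306.0 and 303.0 with shRNA 1 and 308.6 and 310.8 with shRNA 2, against 54.6 and 51.1 with NTC. Another probe set, 1558706_a_at, gave 5.28 and 4.70 times the NTC mean. The dim 1558705_at had 62.9 and 58.7 with shRNA 1 and 46.3 and 56.5 with shRNA 2, against 15.2 and 11.2 with NTC, about or below the array medians, so its fold has no firm base. On all 3 probe sets the knockdown arrays lay far above both NTC arrays.

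MSX2, a homeobox repressor, had 133.9 and 140.0 with shRNA 1 and 105.8 and 98.0 with shRNA 2, against 61.4 and 56.6 with NTC, on 210319_x_at, or 2.32 and 1.73 times the NTC mean. Its 2 other probe sets did not pass the filter, with intensities of 2.9 to 12, below the medians of all arrays. On these too, the 4 knockdown arrays lay above both NTC arrays. MSX2 therefore rests on 1 probe set of a class that may read related transcripts. The same holds for ID1 and ID3, whose only probe sets are of the _s_at class.

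**Figure D2:**
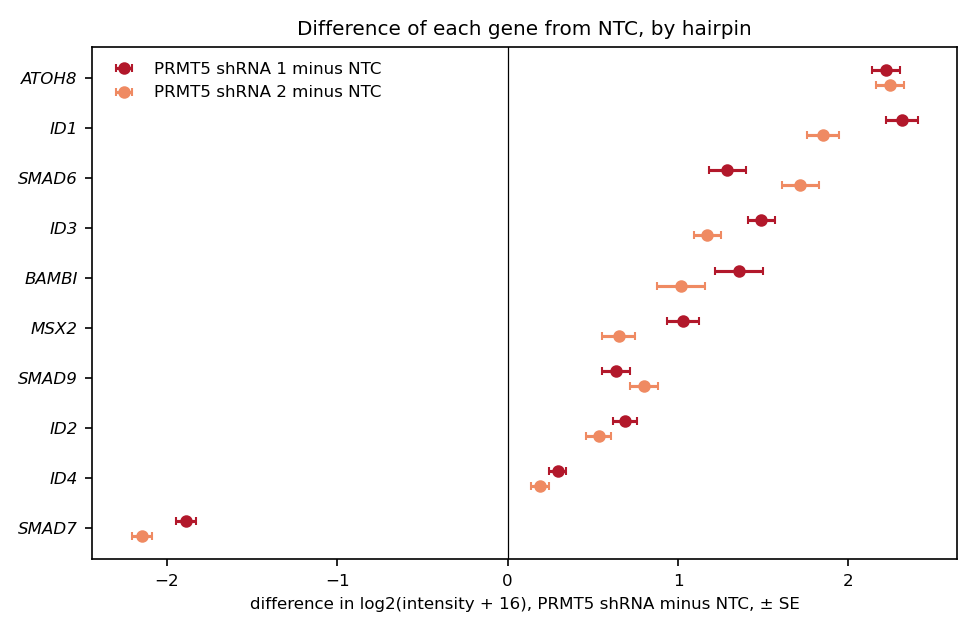
Difference in log2(intensity + 16) of each gene between PRMT5 shRNA 1 or PRMT5 shRNA 2 cells and NTC cells, with bars of 1 standard error from limma's fit. ATOH8 lies at 2.22 and 2.24 and SMAD7 at -1.89 and -2.15, with the other 8 genes between 0.19 and 2.31.

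Over the 10 genes the median log2 difference from NTC was 1.02 for both hairpins averaged, 1.16 with shRNA 1 and 0.91 with shRNA 2. Over all genes tested these medians were -0.01 (-0.0148), -0.04 (-0.0358) and 0.01 (0.00997), and the median size of a difference regardless of sign was 0.14, 0.19 and 0.13. Of the 10 genes, 6 had an averaged difference of at least 1 in size, as did 2.04% of all genes. Of all 23 probe sets, 21 passed the filter and 17 reached the array median in all 6 arrays. Among the 21 kept, 18 had all knockdown arrays above NTC (16.5% of all kept probe sets) and 1 had all below (19.7%). The 2 others were the dim ID4 and SMAD6 probe sets described above. With the 2 MSX2 probe sets under the filter, 20 of the 23 had all knockdown arrays above NTC. In the fit of all probe sets, 18 of the 21 kept were past the threshold and higher, where 13.5% of the 28644 probe sets were, and 1 was lower (28.2% in either direction). For shRNA 1 20 were higher and 1 lower (background 36.4%, 17.5% higher), and for shRNA 2 18 and 1 (18%, 9.38% higher). Between the hairpins 1 was higher with shRNA 2 and 9 lower (25.8%, 13.1% higher). Some of these passed the filter through the knockdown arrays in which they were high, so their count supports nothing further.

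**Figure D3:**
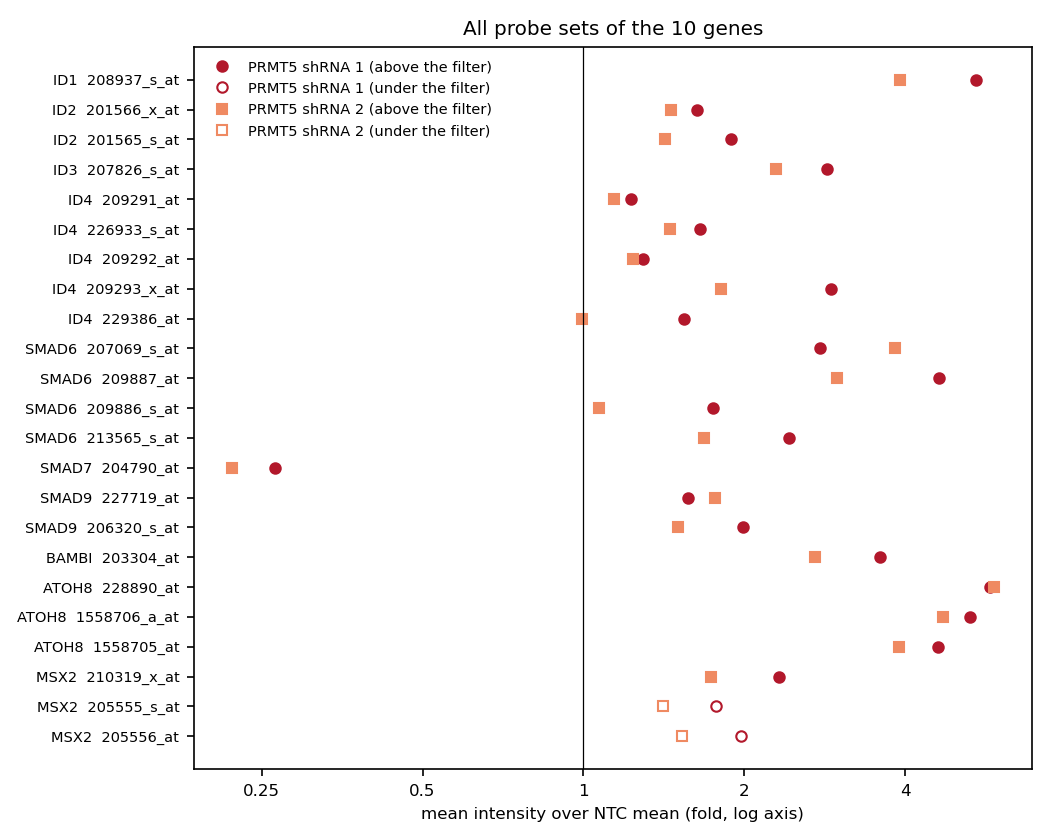
Mean intensity over the NTC mean for each of the 23 probe sets (log axis), with circles for PRMT5 shRNA 1 and squares for PRMT5 shRNA 2, and open symbols for 2 MSX2 probe sets under the filter. All points lie to the right of 1 except those of SMAD7 at 0.265 and 0.220 and the shRNA 2 point of 1 ID4 probe set at 0.992.

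Comparing the hairpins, shRNA 2 cells, which kept more PRMT5, had lower signal than shRNA 1 cells for 7 genes. They had higher signal for SMAD6, SMAD9 and ATOH8, with no overlap between the pairs of arrays for any of the 10 genes. The 7 include SMAD7, whose lower signal with shRNA 2 lay farther from NTC, not nearer. Over all genes 22.2% lay lower and 41.3% higher without overlap. The log2 difference of shRNA 2 against shRNA 1 was -0.46 ± 0.09 (SE) for ID1, -0.38 ± 0.10 for MSX2, -0.32 ± 0.08 for ID3, -0.26 ± 0.06 for SMAD7 and 0.43 ± 0.11 for SMAD6. These 5 were past the threshold of the fit, where 25.7% of all genes were, 18.3% higher and 7.38% lower. With division by the array median, which moved the median of all genes in this comparison by 0.0995, 32.6% were higher and 3.32% lower, ID4 changed sign (0.0094), and ID3, SMAD7 and MSX2 were no longer past the threshold while SMAD9 was. With the brightest probe sets and no added scaling, ID2, ID4, SMAD9, BAMBI and ATOH8 were not past it, and ATOH8 differed by 0.02 ± 0.08 (-0.012 with quantile normalization). With the mean over probe sets all 10 genes, SMAD6, SMAD9 and ATOH8 included, were lower with shRNA 2 than with shRNA 1.

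The profiles of the genes over the 6 arrays, each centred on its mean, were nearest for ID2 and MSX2, with a root mean square difference of 0.159 on the log2 scale, and ID1 lay nearest to ATOH8 (0.235). SMAD7 and ATOH8 were farthest apart (2.01). Outside the 10 genes, the profiles nearest to ATOH8 were COL28A1 (0.0748), QKI (0.108) and RGS4 (0.115). The nearest to ID3 were KRT19 (0.0893), IL1RN (0.0932) and HOXC9 (0.0941). For SMAD9 they were LITAF (0.0519), EPB41L3 (0.0576) and ZNF473CR (0.0607), and for ID4, whose own profile varied by 0.125 in all, RNF13 (0.0106), TADA2B (0.0161) and BRMS1 (0.0192). These likenesses are descriptions over 6 arrays.

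The rest of the pathway was read from lists of whole families, with limma's test across all genes for the average of both hairpins against NTC. Of 118 listed genes 67 were tested, of which 27 rose, 9 fell and 31 did not pass, so 53.7% were called where 32.4% of all genes were. Set against NTC one hairpin at a time, 27 rose and 11 fell for shRNA 1 (56.7%, against 39.3% of all genes), while 20 rose and 5 fell for shRNA 2 (37.3%, against 21.4%). The lists were chosen with earlier results of these data known, so nothing is read from these shares. Fitted with both hairpins as 1 group, INHBA, ACVRL1, TGFBR3, NBL1, KCP, NEDD4L, CTDSPL, DLX5 and IL11, named below, were not called (limma, adjusted p = 0.0519 for NBL1, 0.084 for CTDSPL and up to 0.431 for INHBA). Without the filter on dim probe sets ACVRL1, DLX5 and IL11 were not called.

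Of the SMADs that carry the signal, SMAD1 rose and the other 4 outside the 10 genes did not pass. SMAD1 had 581.0 and 567.5 with shRNA 1 and 401.6 and 401.9 with shRNA 2, against 302.5 and 309.4 with NTC, and it rose by 0.63 ± 0.06 (SE; log2; limma, adjusted p = 1.42e-05). It was higher in 4 of 4 knockdown arrays, and its second probe set gave 0.35. SMAD5, its close relative of the BMP branch, gave -0.13 ± 0.06, and the TGF-beta branch SMAD2 and SMAD3 gave -0.08 ± 0.07 and 0.01 ± 0.06. Among further probe sets 1 of SMAD5 (-0.25) and 1 of SMAD2 (-0.21) passed, lower, and 2 of SMAD5 had the opposite sign (0.13 and 0.14). The common partner SMAD4 gave 0.16 ± 0.06 (limma, adjusted p = 0.0559), while 2 of its 3 other kept probe sets had the opposite sign. Set against NTC with shRNA 1 alone, SMAD4 passed (0.20 ± 0.07; limma, adjusted p = 0.0352), and its average passed with quantile normalization (adjusted p = 0.0494) and without PRMT5 shRNA 2 replicate 2 (adjusted p = 0.0247).

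BMP ligands were few above the filter, with 3 of 14 tested, of which 0 rose, 1 fell and 2 did not pass. BMP2 fell, from a low level, with 6.4 and 6.8 with shRNA 1 and 3.0 and 5.8 with shRNA 2, against 17.3 and 16.2 with NTC (-0.61 ± 0.10, SE, limma, adjusted p = 0.00119). The knockdown values were below the array medians. BMP2 thus passed the filter only through the NTC arrays in which it was high, so its call supports nothing further. BMP7 (-0.07 ± 0.07) and BMP8B (0.02 ± 0.08) did not pass.

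Of the TGF-beta, activin and other ligands 6 of 19 were tested, and 4 rose, 1 fell and 1 did not pass. TGFB2 had 606.6 and 586.0 with shRNA 1 and 271.2 and 296.7 with shRNA 2, against 44.9 and 39.0 with NTC (2.89 ± 0.08, SE, limma, adjusted p = 1.26e-09). Its other 3 probe sets gave 0.98, 1.098 and 2.02, and the mean over probe sets gave 1.75. INHBB, an activin subunit, had 57.3 and 61.9 and 49.7 and 54.7, against 22.1 and 15.4 (1.05 ± 0.10, limma, adjusted p = 2.52e-05). Its NTC arrays did not both reach the array median. INHBB thus passed the filter through the knockdown arrays in which it was high, so its call supports nothing further. GDF11, a ligand that signals through activin receptors, fell to 245.1 and 255.9 with shRNA 1 and 305.7 and 293.0 with shRNA 2, against 571.3 and 601.5 with NTC (-1.06 ± 0.06, limma, adjusted p = 4.28e-07). INHBA, another activin subunit, rose with shRNA 1, to 75.9 and 103.6, while shRNA 2 gave 27.0 and 25.9, against 38.1 and 23.7 with NTC. Its averaged rise of 0.53 ± 0.14 (SE; limma, adjusted p = 0.0151) was not past the threshold without NTC replicate 2.

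Of the receptors 12 of 17 were tested, and 5 rose, 1 fell and 6 did not pass. TGFBR2, the type II receptor of TGF-beta, had 47.5 and 49.9 with shRNA 1 and 55.7 and 51.5 with shRNA 2, against 13.8 and 14.7 with NTC, which is below the array medians (1.15 ± 0.09, SE, limma, adjusted p = 4.29e-06). TGFBR2 passed the filter only through the knockdown arrays in which it was high, so its call supports nothing further. The BMP type I receptor BMPR1B fell slightly (-0.23 ± 0.05, limma, adjusted p = 0.006), with 2 other probe sets of opposite sign, and lost its call without either NTC array. Averaging its probe sets gave -0.032 (limma, adjusted p = 0.676). ACVRL1, a BMP type I receptor known from endothelium, rose by 0.46 ± 0.15 (limma, adjusted p = 0.0352) near background, with 12 and 4.7 with shRNA 1 and 24.0 and 16.1 with shRNA 2, against 3.6 and 7.4 with NTC. ACVRL1 passed the filter only through the shRNA 2 arrays, so its call supports nothing further. It lost the call when replicate 1 of any of the 3 groups was left out. The co-receptor TGFBR3 rose by 0.30 ± 0.09 (limma, adjusted p = 0.0212), a call lost without either NTC array. With shRNA 1 TGFBR3 rose by 0.53 ± 0.10 (limma, adjusted p = 0.00185). With shRNA 2 it did not pass (0.07 ± 0.10; limma, adjusted p = 0.667).

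Extracellular antagonists and modulators moved both ways, with 8 of 18 tested, of which 5 rose, 2 fell and 1 did not pass. NBL1, which binds BMPs, had 231.5 and 232.2 with shRNA 1 and 172.0 and 139.2 with shRNA 2, against 117.3 and 112.4 with NTC (0.65 ± 0.09, SE, limma, adjusted p = 0.000252). SOSTDC1, a BMP and WNT antagonist, rose by 0.47 ± 0.08 (limma, adjusted p = 0.00119). KCP, a chordin-like modulator, rose by 0.33 ± 0.08 (limma, adjusted p = 0.00845), with 1 other probe set of opposite sign. It was not called without NTC replicate 1, nor when its probe sets were averaged (0.11; limma, adjusted p = 0.227). With shRNA 1 KCP rose by 0.52 ± 0.09 (limma, adjusted p = 0.00108). With shRNA 2 it did not pass (0.13 ± 0.09; limma, adjusted p = 0.337). CRIM1, a membrane protein that binds BMPs, fell to 154.8 and 145.4 with shRNA 1 and 193.3 and 283.4 with shRNA 2, against 362.6 and 355.8 with NTC (-0.88 ± 0.12, limma, adjusted p = 0.000227). GREM1, the other gene that fell in the average (-0.21 ± 0.06), fell with shRNA 1 only (-0.60 ± 0.07). With shRNA 2 GREM1 had 416.5 and 423.5, above 365.3 and 368.7 with NTC, and did not pass (0.19 ± 0.07).

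All 15 SMAD ubiquitin ligases, phosphatases and corepressors were tested, and 4 rose, 2 fell and 9 did not pass. The corepressors TGIF1 (0.60 ± 0.10, SE, limma, adjusted p = 0.0012) and SKIL (0.45 ± 0.06, limma, adjusted p = 0.000205), both known as brakes on SMAD-driven transcription, rose in 4 of 4 knockdown arrays. The ubiquitin ligase NEDD4L rose by 0.31 ± 0.07 (limma, adjusted p = 0.0045), a call lost without NTC replicate 1. The phosphatase CTDSPL fell (-0.28 ± 0.05, limma, adjusted p = 0.0018). With shRNA 2 alone neither passed (0.20 ± 0.08 and -0.15 ± 0.06; limma, adjusted p = 0.084 and 0.0876). The ligases SMURF1 (0.02 ± 0.09) and SMURF2 (-0.07 ± 0.06), partners of the inhibitory SMADs, did not pass.

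Among other genes reported as BMP targets, 10 of 14 were tested, and 6 rose, 1 fell and 3 did not pass. The gene that fell was MSX1 (-0.31 ± 0.11, SE), with -0.43 ± 0.12 for shRNA 1. With shRNA 2 MSX1 gave -0.19 ± 0.12, which was not past the threshold. RUNX2, a regulator of bone formation, had 453.6 and 484.7 with shRNA 1 and 501.1 and 511.1 with shRNA 2, against 309.6 and 302.7 with NTC (0.64 ± 0.06, SE, limma, adjusted p = 1.54e-05). The homeobox genes DLX3 (0.81 ± 0.10, limma, adjusted p = 0.000132), DLX2 (0.59 ± 0.06, limma, adjusted p = 4.88e-05) and DLX5 (0.50 ± 0.15, limma, adjusted p = 0.024) also rose. NTC arrays had DLX3 at 11.6 and 13.3 and DLX5 at 12.9 and 3.4, below the array medians. Both genes passed the filter only through knockdown arrays, so their calls support nothing further. DLX5 also lost its call when replicate 2 of NTC, replicate 2 of shRNA 1 or replicate 1 of shRNA 2 was left out. With shRNA 2 alone it did not pass (0.37 ± 0.17; limma, adjusted p = 0.15). Of 13 genes reported as TGF-beta targets 6 were tested, and 2 rose, 1 fell and 3 did not pass. BHLHE40 (0.77 ± 0.08, limma, adjusted p = 3.82e-05) and KLF10 (0.46 ± 0.08, limma, adjusted p = 0.00094) rose. The cytokine IL11 fell (-0.39 ± 0.11, limma, adjusted p = 0.0227). This call was also lost without NTC replicate 1, without PRMT5 shRNA 1 replicate 1 and without _x_at and _s_at probe sets (adjusted p = 0.0609). With shRNA 1 alone IL11 did not pass (-0.29 ± 0.13; limma, adjusted p = 0.103).

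Of 3 listed E proteins and other partners of ID proteins 2 were tested, and the other was under the filter. The E proteins TCF3 and TCF12, which ID proteins bind, did not pass in any comparison (0.01 ± 0.05 and -0.03 ± 0.07, SE, for the average). TCF3 had 2812.1 and 2872.7 with shRNA 1 and 2918.4 and 2566.1 with shRNA 2, against 2709.3 and 2831.0 with NTC, and the groups overlapped. Of 10 further kept TCF3 probe sets 1 passed, higher (0.29), and of 2 further TCF12 probe sets 1 passed, lower (-0.37).

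**Figure D4:**
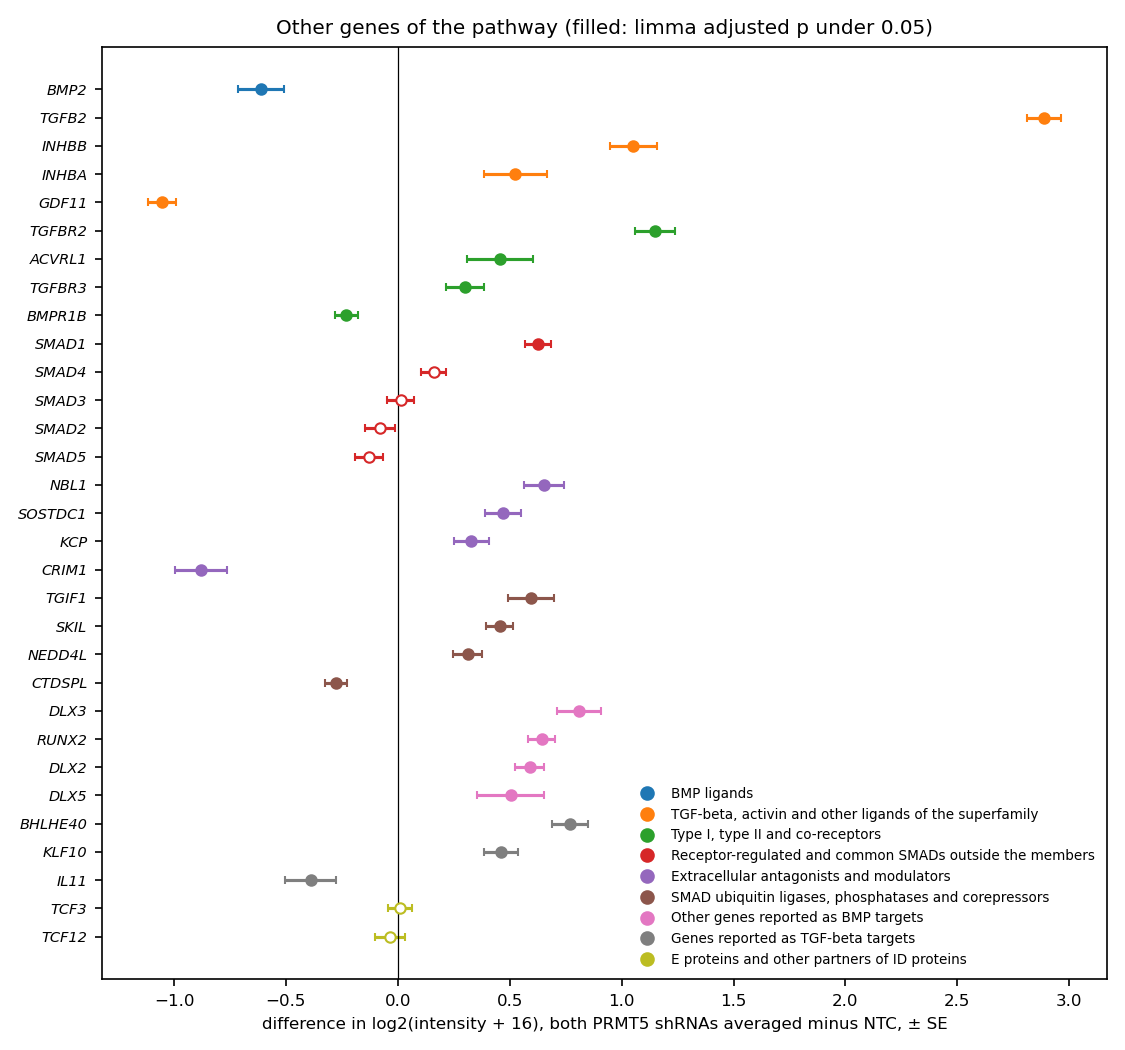
Difference in log2(intensity + 16) of the named other genes of the pathway between both PRMT5 shRNAs averaged and NTC, with bars of 1 standard error, coloured by list and filled where limma's adjusted p was under 0.05. TGFB2 lies highest at 2.89 and GDF11 lowest at -1.06, and of the 5 SMADs shown SMAD1 alone is filled.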

How the data were processed

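The authors deposited linear intensity values for 54675 probe sets, and the submitters' processing notes name MAS5. The trimmed mean of each column (2% left out at each end) was 150, so the arrays had been scaled and no scaling was added. Its version was not given there, and detection calls were not used. The number of value columns matching no sample was 0. Probe sets were named through the platform annotation, and 41037 of 41091 with 1 symbol matched RefSeq by Entrez ID. The 62 control probe sets were left out. A probe set was kept if it reached its array's median in at least 2 of 6 arrays, and the brightest kept probe set stood for a gene. Values as log2(intensity + 16) were fitted with limma 3.58.1 in R 4.3.3 (a coefficient per group, intensity trend, two-sided tests, Benjamini-Hochberg adjustment over 12413 genes, threshold 0.05), which left 3 residual degrees of freedom. The fit was tested on simulated data. A second fit took all 28644 kept probe sets. The 10 genes, the lists and the tests were chosen with earlier results of these data known. Of each pathway list, up to 4 called genes with the largest averaged difference are named with p-values, and all SMADs and the tested E proteins. BMP7, BMP8B, SMURF1, SMURF2, GREM1 and MSX1 are given besides and are not among the 31 named genes. Nearest profiles were sought for the 3 brightest of the 10 genes and the one with the largest averaged difference. The number of arrays limits the precision. Alternatives covered the pseudocount, filter, scaling, probe set choice, variance trend, replicate block, pooling of hairpins and leaving out each array.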

Additional observations from a re-analysis of the deposited data

Results flagged for a closer look

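For 12 of the 31 named pathway genes the test of PRMT5 shRNA 2 against PRMT5 shRNA 1 passed in limma's fit (adjusted p under 0.05), where 25.7% of all genes passed. The named genes were picked mostly for large averaged differences, and over all 67 pathway genes tested 12 were higher with shRNA 2 and 11 lower (34.3%). Lower with shRNA 2 on the log2 scale were INHBA (-1.30), TGFB2 (-1.03), NBL1 (-0.537), SMAD1 (-0.499), TGFBR3 (-0.461), KCP (-0.393), SMAD3 (-0.361) and SKIL (-0.28). Higher with shRNA 2 were CRIM1 (0.592), ACVRL1 (0.574), CTDSPL (0.25) and GDF11 (0.243).

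A probe set annotated to both ID2B and ID2 entered no comparison of genes. Its mean intensity was 288 over the 4 knockdown arrays, with 292.6 and 330.2 with shRNA 1 and 281.4 and 247 with shRNA 2, against 193.3 and 221.9 with NTC, so all 4 lay above both control arrays.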

How the results depend on the processing

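In the averaged comparison with NTC the direction of the 10 genes was kept in 166 of 166 values under the alternatives in which a gene could be measured. Many of these values could not have differed in sign. The filter, variance trend, replicate block and pooled fits left the estimates unchanged. Leaving out 1 array could not reverse them, as all 4 knockdown arrays lay beyond both NTC arrays. The count therefore supports nothing further. Between the hairpins the direction was not kept. There 3 genes were higher and 7 lower with shRNA 2, against 2 and 8 with quantile normalization. Of the 10 genes 4 were higher and 6 lower with division by the array median, and 0 and 10 with the mean over probe sets. Their median difference from NTC (both hairpins, shRNA 1, shRNA 2) was 1.17, 1.33 and 1.00 with a pseudocount of 1, 0.67 (0.674), 0.74 (0.741) and 0.66 (0.658) with 64, 0.83 (0.833), 0.97 (0.974) and 0.69 (0.692) with the mean over probe sets, and 0.83 (0.832), 0.90 (0.897) and 0.77 (0.766) over the 6 genes with probe sets other than _x_at and _s_at. With division by the array median it was 1.09 for shRNA 1. The median of shRNA 2 against shRNA 1 was -0.0962 with division by the array median and -0.271 with the mean over probe sets. Without 1 array in turn these medians ranged over 0.915 to 1.11, 1.09 to 1.18, 0.816 to 1.00 and, between the hairpins, -0.227 to -0.147. Counts of called genes ranged over 2200 to 4248 (both hairpins), 3180 to 5283 (shRNA 1), 1561 to 2443 (shRNA 2) and 1333 to 2808 (between the hairpins), and fewer arrays also lower the power. With both hairpins as 1 group 1501 genes (890 higher, 611 lower) and 19 pathway genes were called, where 4016 (1910 higher, 2106 lower) and 36 were with separate hairpins. Some uncalled differences changed sign. TCF3 gave -0.050 (-0.05045) with quantile normalization, -0.0045 with division by the array median, -0.024 with the mean over probe sets and -0.036 to 0.056 without 1 array. SMAD3 gave -0.0021 with division by the array median and -0.015 to 0.039 without 1 array, SMAD4 -0.041 with the mean over probe sets, and TCF12 -0.094 to 0.027 without 1 array. Division by the array median also moved the higher share of called genes to 27.6% (41.2% as reported) for shRNA 1, 71.1% (60.9%) for shRNA 2 and 90.8% (71.3%) between the hairpins. With the mean over probe sets the last was 60.9%. With the replicate block 3705 genes were called for both hairpins, 4559, 2435 and 2829 in the other comparisons, and 36 pathway genes. The labels do not say that replicate numbers mark a shared batch, and the deviations of same-numbered arrays correlated at -0.0902 (shRNA 1 and NTC), -0.176 (shRNA 2 and NTC) and -0.0045 (both hairpins). With the numbers of shRNA 2 crossed, an alternative chosen after seeing the data, 2715 genes were called for shRNA 2. The cause of the other shifts was not tested.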
